A study of Mus musculus with 8 samples.

Results

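The genes described here carry glucose into the cell and break it down to pyruvate and lactate. The 10 members, of 23432 gene symbols counted in every library, were chosen by symbol: the glucose transporter Slc2a1, the enzymes Hk1, Hk2, Gpi1, Pfkl, Aldoa, Pgk1, Pgam1 and Eno1, and lactate dehydrogenase A (Ldha). All 10 symbols were present, and 9 had reads in every library. Eno1 had 1 read in a single library and 0 reads in the other 7.

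Glycolysis splits glucose into a pair of three-carbon sugars and harvests ATP and NADH on the way to pyruvate. Hexokinase traps glucose as glucose 6-phosphate, phosphofructokinase commits it to breakdown, and lactate dehydrogenase regenerates the NAD+ that lets the pathway run without mitochondrial respiration. GLUT1, the product of Slc2a1, is the main glucose transporter of the basal epidermis, and hypoxia-inducible factors and Myc are known activators of many of these genes.

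Poly(A) RNA was sequenced from mouse dorsal skin epithelium at 2 stages, with 2 libraries in each of 4 groups. At E16.5 (embryonic day), cells carrying the K14-H2BGFP reporter were sorted by FACS from controls and from animals in which the acetyltransferase MOF (gene Kat8) had been removed by Krt14-Cre (MOF cKO, MOF fl/fl). At P0.5 (postnatal day), whole epidermis was peeled off with dispase from controls and from animals in which the same Cre had removed the third exon of Kansl1, a subunit of the NSL complex of MOF (Kansl1 cKO, Kansl1 fl/fl). Krt14-Cre acts in keratinocytes of the epidermis and hair follicle and not in immune, dermal or muscle cells, and controls were wild-type or heterozygous littermates of either sex, on a mixed C57Bl/6J and CD-1 background. Stage therefore goes together with cell isolation, and no library was made of both kinds.

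Libraries held 9108709 to 27561688 reads on genes, with the shallowest in the P0.5 control group. Over the whole gene, Kat8 was at 13.3 and 13.6 CPM (counts per 1e6 reads) in the E16.5 controls and 11.5 and 12.8 CPM in MOF cKO (log2 fold change −0.14, SE 0.18, adjusted p = 0.554 by the edgeR quasi-likelihood test). Kansl1 was at 43.4 and 51.8 CPM in the P0.5 controls and 34.6 and 33.4 CPM in Kansl1 cKO (log2 fold change −0.52, SE 0.17, adjusted p = 0.242). A count over a whole gene does not resolve deleted exons, so neither value checks the labels. The basal epidermal markers were all above 1 CPM in every library. P0.5 control replicate 1 stood apart: its 9 skeletal muscle markers summed to 351 CPM, against 7.08 to 11.8 CPM in the other P0.5 libraries, and 8 of the 9 were highest there. Results that rest on this library are given with and without it. In bulk RNA of this kind, fewer cells of a type and less RNA per cell cannot be told apart.

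All levels below are CPM scaled by trimmed-mean factors over the 8 libraries, and a change was called at an adjusted p of at most 0.01 with a fold above 1.5.

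Per kilobase of exon, Pgam1 stood highest of the measured members in the E16.5 controls, at 173 ± 2.81 CPM per kb (SD, n = 2), Pgk1 at 157 ± 3.83, Aldoa at 149 ± 12.2, Ldha at 147 ± 18.2 and Slc2a1 at 130 ± 14.0. Aldoa, Ldha and Slc2a1 were neighbours within their spread. Gpi1 followed at 41.2, Pfkl at 23.5 and Hk2 at 14.8 CPM per kb, and Hk1 was lowest of the measured members at 2.94 CPM per kb. In MOF cKO the order changed at the top: Aldoa led at 397 ± 20.8 CPM per kb, ahead of Pgam1 at 324 ± 24.8, Ldha at 279 ± 2.34 and Pgk1 at 257 ± 12.6. The length used was that of all annotated exons of a gene merged, and these orders depend on it. By CPM alone, the E16.5 control means were 485 for Ldha, 456 for Slc2a1, 433 for Aldoa, 353 for Pgk1 and 344 for Pgam1. In MOF cKO Aldoa led by CPM too, at 1155, ahead of Ldha at 925.

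**Figure D1:**
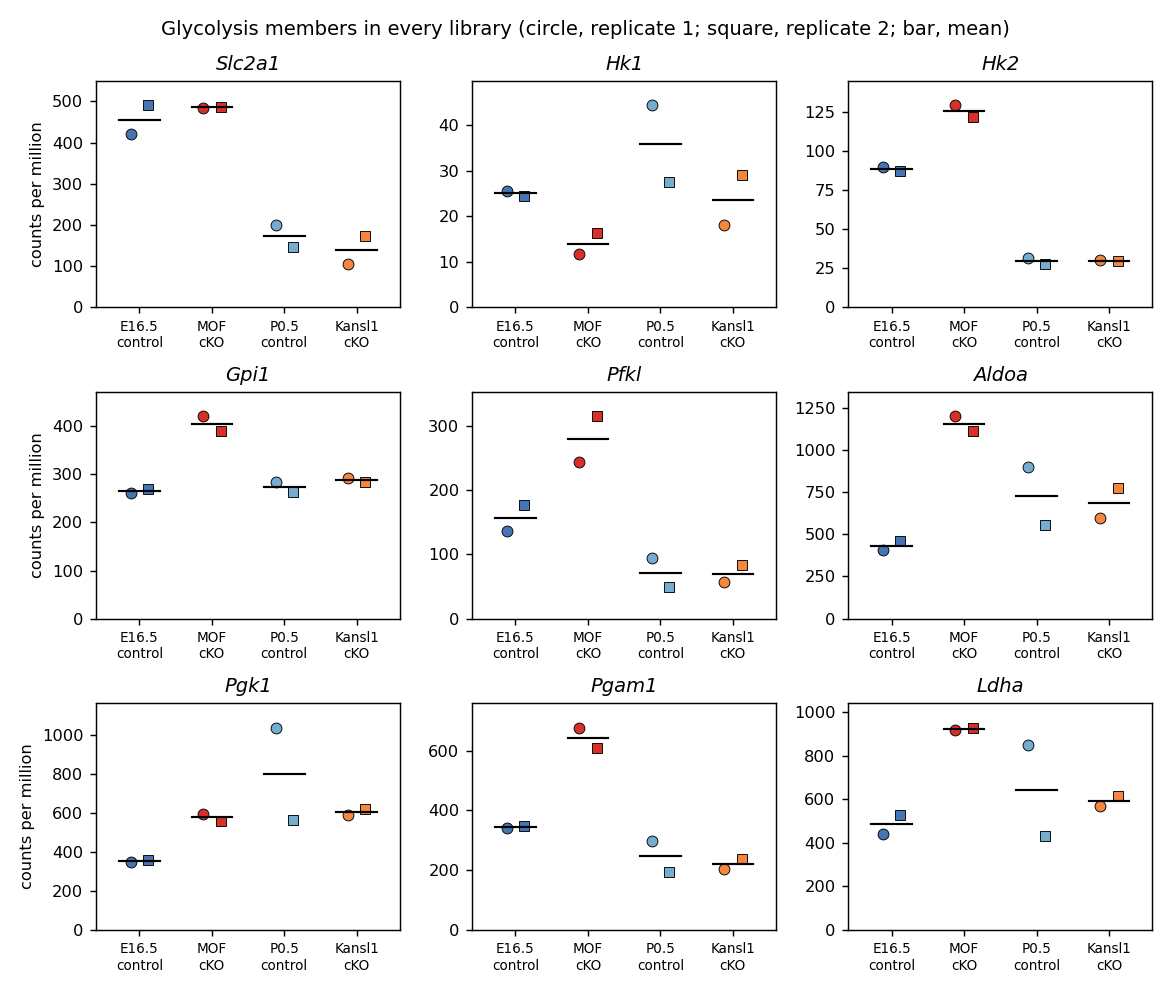
Level of the 9 measured members in each of the 8 libraries, in CPM on a linear axis that starts at 0, with circles for replicate 1, squares for replicate 2 and bars for the mean of each group. Aldoa rises from 407 and 458 in the E16.5 controls to 1198 and 1112 in MOF cKO, Slc2a1 and Hk2 are lower in both P0.5 groups, and P0.5 control replicate 1 is the highest P0.5 library for Pgk1 at 1039.

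Loss of MOF raised most of the enzyme chain at E16.5, while Slc2a1 was not called. Of the 9 members tested, 6 were called higher (Gpi1, Pfkl, Aldoa, Pgk1, Pgam1 and Ldha) and 0 lower, where 10% of all 13956 genes tested were called higher and 9.59% lower. The median log2 fold change was 0.71 over the 9 members and −0.02 over all genes tested. The 10th member, Eno1, had too few reads to test. The groups did not overlap for 8 of the 9, 7 of them higher in MOF cKO, whereas 35% of all genes tested were higher and 37.7% lower in both MOF cKO libraries.

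The uptake gene was not called. Slc2a1, which encodes GLUT1 (chr4:119108711-119137983, plus strand, mm10), had 421 and 491 CPM in the E16.5 controls and 485 and 486 CPM in MOF cKO. The groups overlapped, and its log2 fold change was 0.09 (95% interval −0.17 to 0.35, adjusted p = 0.542). Its share of all reads on the 9 members went from 17.0% and 17.9% in the controls to 10.4% and 10.7% in MOF cKO. The other members are in the base of this share, so their rise alone lowers it.

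The hexokinases, which trap glucose in the cell, went in opposite directions. Hk1, the isozyme widespread in adult tissues (chr10:62268855-62379908), had 25.6 and 24.5 CPM in the controls and 11.8 and 16.3 CPM in MOF cKO. Hk2, the isozyme of insulin-sensitive and fast-growing tissues (chr6:82725025-82774454), had 89.6 and 87.3 CPM in the controls and 129 and 121 CPM in MOF cKO. Neither pair of groups overlapped, and neither gene was called: Hk1 had a log2 fold change of −0.83 (SE 0.19) with adjusted p = 0.0127, just past the p threshold. Hk1 was called lower in 6 of the 10 other settings tried (adjusted p 5.92e-05 to 0.0496 over the 10). Hk2 passed on p (adjusted p = 0.00893), but its log2 fold change of 0.50 (SE 0.10) was a fold of 1.41, under the fold threshold. Within each library, reads per kilobase on Hk2 were 5.01 and 5.08 times those on Hk1 in the controls and 15.6 and 10.7 times those on Hk1 in MOF cKO, and this ratio does not depend on how libraries were scaled. Its size does depend on the exon lengths used. With 2 libraries against 2, an exact permutation test of such a ratio cannot give a two-sided p below 0.333.

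The remaining preparatory enzymes were all called higher. Gpi1, glucose 6-phosphate isomerase (chr7:34201330-34230336), had 262 and 270 CPM in the controls and 421 and 390 CPM in MOF cKO (log2 fold change 0.61, SE 0.10, adjusted p = 0.00374). Pfkl, the liver-type phosphofructokinase (chr10:77986947-78010083), had 137 and 177 CPM in the controls and 243 and 314 CPM in MOF cKO (log2 fold change 0.83, SE 0.17, adjusted p = 0.00805). Aldoa, the aldolase that cleaves fructose 1,6-bisphosphate (chr7:126795234-126800751), had 407 and 458 CPM in the controls and 1198 and 1112 CPM in MOF cKO. Aldoa moved the most of the 9 in this comparison, with a log2 fold change of 1.42 (SE 0.11, adjusted p = 0.000358), or 2.67-fold.

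The payoff and lactate enzymes rose by amounts between those of Gpi1 and Aldoa. Pgk1, the first ATP-producing kinase of the pathway (chrX:106187100-106203699), had 347 and 359 CPM in the controls and 597 and 557 CPM in MOF cKO (log2 fold change 0.71, SE 0.10, adjusted p = 0.00197). Pgam1, phosphoglycerate mutase (chr19:41911923-41918660), had 340 and 348 CPM in the controls and 677 and 608 CPM in MOF cKO (log2 fold change 0.90, SE 0.10, adjusted p = 0.00100). Ldha (chr7:46841475-46855627) had 443 and 528 CPM in the controls and 919 and 930 CPM in MOF cKO (log2 fold change 0.93, SE 0.11, adjusted p = 0.00122). Every MOF cKO library exceeded every control for each of these enzymes. Because Pgk1 lies on the X chromosome and animals of both sexes were used, Xist is given beside it: 1394 CPM in control replicate 1 and 9.21 to 11.1 CPM in the other 3 E16.5 libraries. The E16.5 controls, which differed in Xist, had Pgk1 at 347 and 359 CPM. At P0.5 the control with Xist at 455.5 CPM had Pgk1 at 1038.6 CPM, and the control with Xist at 1.32 CPM had it at 562.2 CPM. The part of sex in the Pgk1 levels was not tested.

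The members' part of the library rose accordingly, from 0.299% and 0.329% of all reads on genes in the controls to 0.449% in both MOF cKO libraries. Fitting all 8 libraries together took Pfkl (adjusted p = 0.0592), Pgk1 (adjusted p = 0.0443) and Ldha (adjusted p = 0.0220) past the p threshold and left 3 members called. Scaling by library size alone lowered the median of all genes to −0.32 and turned the balance of all calls from 1395 higher and 1338 lower to 769 higher and 2743 lower. Under that scaling 3 members were called higher and Hk1 lower, and all 6 called above stayed above 0, from 0.30 for Gpi1 to 1.11 for Aldoa. Each near-identical gene copy can take reads from its parent in the counting: 2 such copies were found for Pgk1 and 2 for Ldha, and none for the other 7 measured members.

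**Figure D2:**
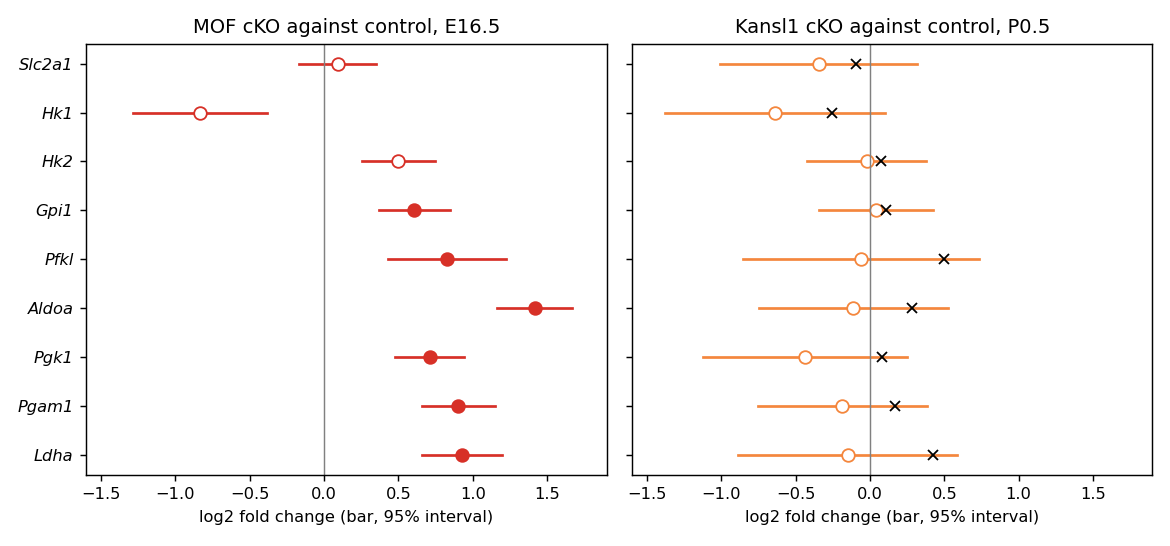
Log2 fold change of each measured member with its 95% interval, for MOF cKO against control at E16.5 on the left and Kansl1 cKO against control at P0.5 on the right, with filled circles for called changes, open circles for the rest and crosses for the Kansl1 value without P0.5 control replicate 1. On the left 6 circles are filled, from 0.61 for Gpi1 to 1.42 for Aldoa; on the right none is, and the crosses for Pfkl and Ldha lie at 0.50 and 0.42.

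Eno1 (chr4:150236721-150248879), the enolase step, could not be measured by its own symbol. Its transcript shares 99.5% identity over 85.6% of its length with the gene listed as Gm5506 (Eno1b), and at least 95% identity with 2 further genes. Gm5506 had 46.7 and 56.3 CPM in the E16.5 controls and 209 and 3.79 CPM in MOF cKO. The MOF cKO libraries thus lay on either side of the controls, with 4503 and 97 reads. At P0.5 the 4 libraries had 1.95 to 3.30 CPM. Reads of the enolase genes cannot be assigned to either symbol, so no change is given for this step.

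The promoters of the members are shown because so many of them rose together in MOF cKO. RefSeq (GRCm38.p6) lists 16 start sites for the 10 members, and each 300-base window, from 250 bases before the start to 50 after it, was searched on both strands for ACGTG and GCGTG, the core letters of a hypoxia response element. At least 1 of these letter strings lay in 13 of the 16 windows, against 43.8% of 32851 windows of all genes. ACGTG alone lay in 8 windows (19.6% of all genes' windows) and GCGTG alone in 9 (32.4%). CACGTG, the E-box bound by Myc, which contains ACGTG, was found in 1 window (7.2% of all), and the GC box GGGCGG in 11 (35.7% of all). Windows of neighbouring starts of Aldoa and of Eno1 overlap, so the 16 are not separate sequences. The 250 bases before the start are printed for the 3 members with the largest rise in MOF cKO and for both hexokinases, 5′ to 3′ on the strand of the gene, with ACGTG or GCGTG on either strand in capitals.
Aldoa, second of 3 starts, chr7:126799255-126799504, minus strand: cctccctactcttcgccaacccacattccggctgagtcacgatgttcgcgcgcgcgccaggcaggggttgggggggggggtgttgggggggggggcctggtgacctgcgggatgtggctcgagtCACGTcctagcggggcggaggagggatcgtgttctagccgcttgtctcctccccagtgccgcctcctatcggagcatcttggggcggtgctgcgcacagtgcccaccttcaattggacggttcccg
Pgam1, chr19:41911621-41911870, plus strand: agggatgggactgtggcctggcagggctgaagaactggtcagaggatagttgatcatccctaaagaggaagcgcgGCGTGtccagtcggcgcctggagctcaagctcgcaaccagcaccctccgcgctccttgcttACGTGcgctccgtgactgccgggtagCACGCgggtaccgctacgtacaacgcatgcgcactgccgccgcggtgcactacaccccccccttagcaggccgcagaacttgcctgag
Ldha, first of 2 starts, chr7:46845554-46845803, plus strand: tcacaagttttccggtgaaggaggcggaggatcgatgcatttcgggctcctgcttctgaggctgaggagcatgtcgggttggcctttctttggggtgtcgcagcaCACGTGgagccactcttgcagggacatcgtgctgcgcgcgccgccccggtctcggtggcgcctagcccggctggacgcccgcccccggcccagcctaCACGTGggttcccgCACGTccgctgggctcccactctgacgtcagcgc
Hk2, chr6:82774455-82774704, minus strand: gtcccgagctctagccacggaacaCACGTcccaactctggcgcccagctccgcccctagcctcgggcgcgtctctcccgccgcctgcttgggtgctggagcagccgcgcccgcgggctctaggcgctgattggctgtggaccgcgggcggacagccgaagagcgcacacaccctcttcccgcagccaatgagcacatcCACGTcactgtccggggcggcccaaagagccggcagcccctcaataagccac
Hk1, second of 2 starts, chr10:62340422-62340671, minus strand: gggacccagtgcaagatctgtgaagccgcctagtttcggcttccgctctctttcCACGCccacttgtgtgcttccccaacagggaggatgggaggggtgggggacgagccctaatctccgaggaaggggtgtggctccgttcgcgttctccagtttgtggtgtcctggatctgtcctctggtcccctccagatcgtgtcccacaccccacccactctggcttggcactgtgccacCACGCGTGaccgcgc
Ldha held 5 of these strings upstream of its first start when a CACGTG is counted once on each strand, and 1 upstream of its second. Its 2 E-boxes are part of the 5. Counted once per place, Ldha held no more than Pgam1. Pgam1 held 3, Hk1 3 at its second start and 0 at its first, Hk2 2, and Aldoa 1 at its second start and 0 at its first. The called member Gpi1 held 0, so members with and without the strings were among those called. For the printed starts of Pgam1 and Ldha, and the first start of Eno1, the bases from the start onward matched no GENCODE transcript of the gene. For the other starts they did match. A match to a letter string is a description of letters, and binding was not measured here.

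The isozymes outside the members also shifted in MOF cKO. Of the other 21 glycolysis genes in the files, 15 could be tested, and 4 were called higher and 2 lower, with a median log2 fold change of 0.51, where 10% of all genes tested were called higher and 9.59% lower. With library size alone 0 of the 15 were called higher and 3 lower. Triosephosphate isomerase (Tpi1) was at 356 and 425 CPM in the controls and 668 and 655 CPM in MOF cKO (log2 fold change 0.76, adjusted p = 0.00262), and pyruvate kinase (Pkm) was at 1193 and 1270 against 2050 and 2117 CPM (0.76, adjusted p = 0.00136). Gapdh was at 1200 and 1234 CPM in the controls and 1767 and 1727 CPM in MOF cKO (log2 fold change 0.52, adjusted p = 0.00508). Its fold of 1.44 was under the threshold, and 71 near-identical copies of Gapdh make its count uncertain.

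The 3 phosphofructokinase genes changed in balance. Pfkm, the muscle-type enzyme, fell from 25.9 and 25.6 CPM to 9.54 and 9.45 CPM (log2 fold change −1.44, SE 0.16, adjusted p = 0.000836). Pfkp, the platelet-type enzyme, rose from 7.79 and 12.2 CPM to 21.9 and 28.7 CPM (log2 fold change 1.34, SE 0.25, adjusted p = 0.00574). Of the reads per kilobase on the 3 genes, Pfkl held 71.1% and 75.6% in the controls and 89.0% and 90.5% in MOF cKO, and Pfkm went from 26.9% and 21.8% to 6.99% and 5.44%. For lactate dehydrogenase, Ldhb, the heart-type subunit, was level at 87.3 and 97.0 CPM in the controls and 89.2 and 89.7 CPM in MOF cKO (log2 fold change −0.04, 95% interval −0.30 to 0.21). The ratio of Ldha to Ldhb per kilobase was therefore 2.40 and 2.58 in the controls and 4.89 and 4.92 in MOF cKO. Merged exon lengths were 13.4 kb for Pfkp, 6.675 kb for Pfkl, 3.34 kb for Pfkm, 3.31 kb for Ldha and 1.57 kb for Ldhb. The size of these shares and ratios depends on those lengths, while the change of 1 gene against another between libraries does not. By mean CPM, Pfkp was above Pfkm in MOF cKO, at 25.26 and 9.495.

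**Figure D3:**
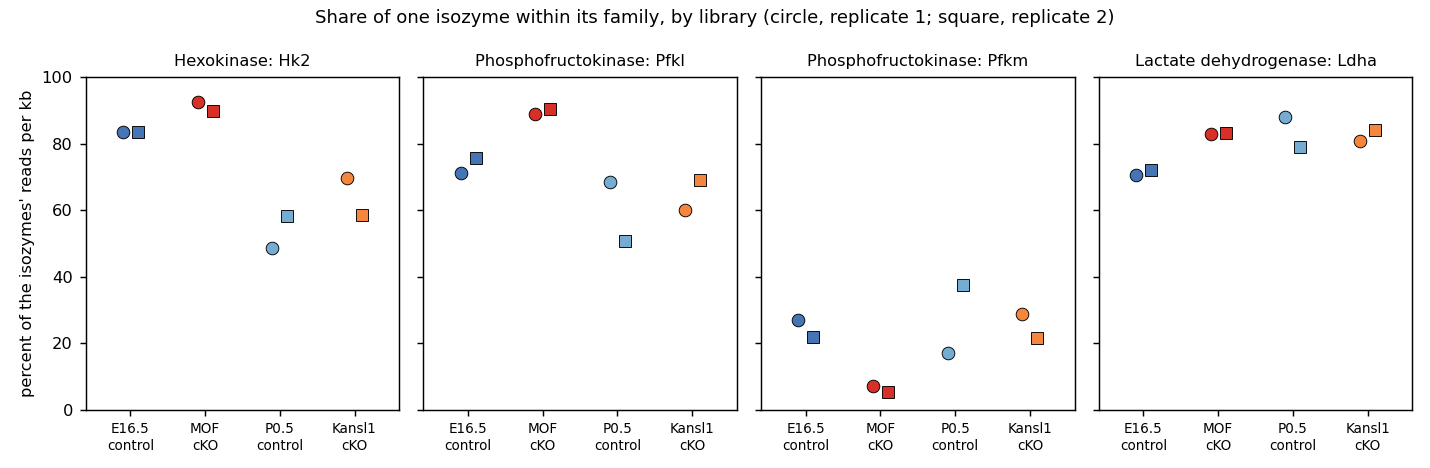
Share of Hk2, Pfkl, Pfkm and Ldha in the reads per kilobase of their isozyme family, in percent from 0 to 100, for each of the 8 libraries (circles, replicate 1; squares, replicate 2). In MOF cKO the Pfkl points stand at 89.0 and 90.5 and the Pfkm points at 6.99 and 5.44, outside the range of the E16.5 controls, and the Hk2 points of all P0.5 libraries lie below those of all E16.5 libraries.

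Among the other isozymes, Bpgm, which diverts the pathway to 2,3-bisphosphoglycerate, fell from 17.2 and 23.6 CPM to 2.22 and 4.84 CPM (log2 fold change −2.51, SE 0.36, adjusted p = 0.00210). Pgam5, a mitochondrial phosphatase named for its likeness to the mutases, was called higher (log2 fold change 0.81, adjusted p = 0.00378). Eno2 (2.43 and 3.41 against 6.21 and 11.4 CPM), Eno3 (5.99 and 7.01 against 2.08 and 2.85 CPM) and Aldoc (4.64 and 7.45 against 3.98 CPM in both) were not called. Pgam2 had under 0.5 CPM in all 4 E16.5 libraries. Hk3, the hexokinase of blood leukocytes, had 0 and 4 reads in the controls and 29 and 39 in MOF cKO, and was not called (adjusted p = 0.0208).

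Of 11 transport genes other than Slc2a1 tested in MOF cKO, 4 were called higher and 0 lower (median log2 fold change 0.88), where 10% of all genes were called higher and 9.59% lower. With library size alone the counts were 2 higher and 1 lower, and DESeq2 called 5 higher and 2 lower of 13. Slc2a3 (GLUT3), the transporter of neurons and leukocytes, had 5.78 and 2.87 CPM in the controls and 22.4 and 21.1 CPM in MOF cKO (log2 fold change 2.32, SE 0.32, adjusted p = 0.00181). Slc2a9, Slc2a4 (the insulin-responsive GLUT4) and Bsg (basigin, the chaperone of the lactate transporters) were the other 3, with log2 fold changes of 1.19, 0.88 and 0.70. Slc2a8 was not called, with 12.8 and 15.3 CPM in the controls and 5.23 and 7.77 CPM in MOF cKO (adjusted p = 0.0130).

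In the branches off glycolysis calls went in both directions, beside the 10% of all genes called higher and 9.59% lower. In the fructose 2,6-bisphosphate switch 1 of 5 genes was called, Pfkfb3, an activator of phosphofructokinase (log2 fold change 0.80, adjusted p = 0.00709). Of 16 glycogen genes tested, 0 were called higher and 3 lower: the phosphorylase kinase subunit Phkb (−1.36) and the phosphorylases Pygb (−1.08) and Pygl (−0.80). With library size alone 6 of the 16 were called lower, and in the fit of all 8 libraries 2. Taldo1, transaldolase, was the 1 gene called of 8 tested in the pentose phosphate pathway (−1.01), Pck2 the 1 of 3 in gluconeogenesis (−0.80), and Uap1l1 the 1 of 6 in the hexosamine pathway (1.66). At the entry of pyruvate into mitochondria, 0 of 14 genes were called higher and 3 lower. These were the pyruvate dehydrogenase kinases Pdk2 (log2 fold change −2.02, adjusted p = 0.00271) and Pdk3 (−0.86), which switch the complex off, and Pdhx (−1.23), a structural subunit of it. Median log2 fold changes were −0.34 for glycogen, −0.06 for the pentose phosphate pathway and −0.23 for pyruvate entry, beside −0.02 for all genes tested.

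Beside 10% of all genes called higher and 9.59% lower in MOF cKO, 4 of 17 regulators of glycolysis were called higher and 1 lower. This became 1 higher and 1 lower with library size alone, in the fit of all 8 libraries, and without MOF cKO replicate 1. The higher ones were the hypoxia-inducible subunits Hif1a (log2 fold change 0.82, adjusted p = 0.00422) and Epas1 (1.26, adjusted p = 0.00966), the oncogene Myc (1.15, adjusted p = 0.000868) and the HIF prolyl hydroxylase Egln3 (0.80). Arnt, the partner that both HIF subunits need to bind DNA, was the lower one (log2 fold change −0.79, SE 0.12, adjusted p = 0.00240), at 59.3 and 64.7 CPM in the controls and 34.9 and 36.7 CPM in MOF cKO. Of 16 hypoxia targets outside glycolysis 5 were called higher and 0 lower (median log2 fold change 0.55), beside 10% of all genes called higher. With library size alone 2 were called higher, and in the fit of all 8 libraries 1. Stc2 (2.20), Vegfa (1.11), Ddit4 (0.92) and Bhlhe40 (0.83) led them, and Egln3 stands in both lists.

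**Figure D4:**
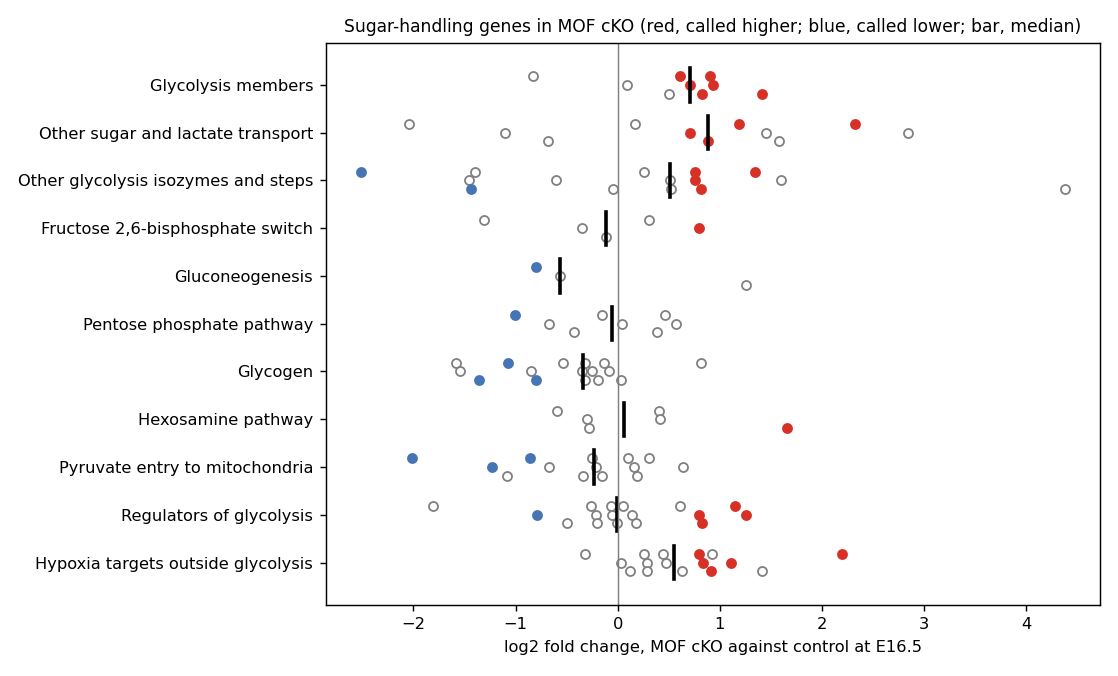
Log2 fold change of each tested gene in MOF cKO against control at E16.5, by list, with red points called higher, blue points called lower, open points not called and black bars at the median of the list. The members' median lies at 0.71, with all called points on the right of 0, while the called points of glycogen and pyruvate entry lie on the left; the open point farthest right is Hk3, which had 0 and 4 reads in the controls.

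Markers of other cells and states moved in the same libraries, where 10% of all genes tested were called higher and 9.59% lower. Of 12 macrophage markers 8 were called higher in MOF cKO, and their sum was 19.4 and 43.1 CPM in the controls and 103 and 129 CPM in MOF cKO. Adgre1 and Csf1r were at or under 1 CPM in the controls and at 3.51 to 10.7 CPM in MOF cKO. Of 9 markers of differentiated epidermis 5 were called higher, with a sum of 3907 and 3203 CPM in the controls and 8406 and 9262 CPM in MOF cKO. Of 6 hair follicle markers 4 were called lower, with a sum of 438 and 622 CPM in the controls and 240 and 243 CPM in MOF cKO. Of 8 fibroblast markers 0 were called, with 6 point estimates higher and 2 lower (median log2 fold change 1.03). All 8 had an unadjusted p under 0.05, as did 6820 of all 13956 genes tested. The lower ones were Dcn (454.6 and 471.2 CPM in the controls, 379.4 and 372.1 CPM in MOF cKO) and Postn (791.0 and 672.3 against 621.5 and 476.3 CPM). The 8 summed to 1633 and 2108 CPM in the controls and 2043 and 2458 CPM in MOF cKO. Of 6 endothelial markers 1, Pecam1, was called higher (median 1.23), with a sum of 5.96 and 6.91 CPM in the controls and 10.9 and 21.8 CPM in MOF cKO. Skeletal muscle markers summed to 3.66 to 21.6 CPM in the 4 libraries, and 0 were called. The part of any of these cells in the members' changes was not tested.

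Kansl1 loss at P0.5 gave no called change in any member. Of 9 tested, 0 were called in either direction, where 0% of all 13031 genes tested were called higher and 0% lower by edgeR. At an unadjusted p under 0.05, 0 of the 9 members and 2045 of all genes passed, and DESeq2 called 0 members, with 35 genes higher and 55 lower in all. The groups overlapped for all 9 members, while the 2 Kansl1 cKO libraries were both higher for 28.8% and both lower for 20.6% of all genes. A p that misses the threshold does not show that values are alike, so intervals are given. Gpi1 was bounded most closely, at 285 and 263 CPM in the controls and 292 and 284 CPM in Kansl1 cKO (log2 fold change 0.04, 95% interval −0.34 to 0.42). Hk2, at 31.4 and 27.8 CPM in the controls and 30.3 and 29.4 CPM in Kansl1 cKO, was bounded nearly as closely (−0.02, 95% interval −0.42 to 0.38).

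The other members were spread widely within the P0.5 controls. Pgk1 had 1039 and 562 CPM in the controls and 587 and 622 CPM in Kansl1 cKO (log2 fold change −0.44, 95% interval −1.13 to 0.25, adjusted p = 0.505). Ldha had 848 and 433 CPM in the controls and 567 and 613 CPM in Kansl1 cKO (−0.15, 95% interval −0.89 to 0.58). Aldoa had 895 and 555 CPM in the controls and 596 and 776 CPM in Kansl1 cKO (−0.11, 95% interval −0.75 to 0.52). For each of the 3, both Kansl1 cKO values lay between the 2 controls.

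Pfkl behaved likewise, at 94.2 and 48.6 CPM in the controls and 56.9 and 82.9 CPM in Kansl1 cKO (−0.06, 95% interval −0.85 to 0.73), as did Pgam1, at 298 and 193 CPM against 205 and 236 CPM (−0.19, 95% interval −0.76 to 0.38). Hk1 had 44.4 and 27.6 CPM in the controls and 18.2 and 29.2 CPM in Kansl1 cKO, the lowest point estimate of the members (log2 fold change −0.64, SE 0.31, adjusted p = 0.375). Slc2a1 had 200.2 and 146 CPM in the controls and 105 and 174 CPM in Kansl1 cKO (−0.35, SE 0.28, adjusted p = 0.586). A rise of the size seen for Gpi1 in MOF cKO (0.61) lay inside the 95% interval of Pfkl. It lay just above that of Ldha, and above those of the other members. A fall of that size lay inside the interval of every member except Gpi1 and Hk2. These intervals rest on both P0.5 controls, and the size of change that could be detected was not computed.

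In all 9 members control replicate 1 was above control replicate 2. It was the library with the muscle markers (Ckm at 32.7 CPM, against 0.479 to 0.863 CPM in the other P0.5 libraries; Acta1 at 129 against 0.777 to 1.60). The muscle isozymes Eno3 (19.1 against 3.19 to 4.66 CPM) and Pgam2 (2.94 against 0 to 0.139 CPM) were also highest there. Pfkm was not, and at 11.8 CPM it was lowest there of the 4 P0.5 libraries. Markers of differentiated epidermis summed to 84140 CPM in control replicate 1 and 47656 CPM in control replicate 2, and to 49509 and 83313 CPM in the Kansl1 cKO libraries. The 2 libraries with the higher sums also had the higher Hk1, Slc2a1, Aldoa, Pgk1, Pgam1, Pfkl and Ldha within their groups. Macrophage markers summed to 216 and 255 CPM in the controls and 327 and 354 CPM in Kansl1 cKO. Melanocyte markers summed to 493 and 547 CPM in the controls and 1079 and 1208 CPM in Kansl1 cKO (0 of 6 called, all 6 at an unadjusted p under 0.05, median log2 fold change 1.13). Fibroblast markers summed to 2639 and 1897 CPM in the controls and 1986 and 1670 CPM in Kansl1 cKO (0 of 8 called, 5 at an unadjusted p under 0.05, median −1.56). Of the 8, 6 had a lower and 2 a higher point estimate. The higher ones were Dcn (317.0 and 426.6 against 661.1 and 427.7 CPM) and Postn (772.8 and 722.8 against 968.1 and 863.2 CPM). The part of any of these cells or of epidermal stage in the members' levels was not tested.

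Without control replicate 1, where the lone control is assumed to vary like the knockouts, 7 of the 9 members had a Kansl1 log2 fold change above 0 and 0 were called. Pfkl was at 0.50 (SE 0.28, adjusted p = 0.526), Ldha at 0.42 (SE 0.21, adjusted p = 0.471) and Aldoa at 0.28 (SE 0.24, adjusted p = 0.669), so these directions rest on that library. Pgk1 was at 0.08 (SE 0.20) without it. Xist at P0.5 was 456 CPM in control replicate 1, 1.32 CPM in control replicate 2, and 408 and 462 CPM in the Kansl1 cKO libraries.

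None of the 107 other sugar-handling genes that could be tested at P0.5 was called in Kansl1 cKO by edgeR, and DESeq2 called 0 on those 10 lists. With no filter beyond 1 count, 1 of 18 other glycolysis genes was called lower. Calls also appeared without Kansl1 cKO replicate 2, a fit that leaves that group without replication. Aldoc, at 53.7 and 29.8 CPM in the controls and 16.1 and 22.5 CPM in Kansl1 cKO, had a log2 fold change of −1.14 (SE 0.32) with adjusted p = 0.217, and Bpgm, at 9.30 and 10.7 against 5.11 and 6.30 CPM, had −0.85 (SE 0.27) with adjusted p = 0.235. Tpi1 had 549 and 307 CPM in the controls and 413 and 485 CPM in Kansl1 cKO, and Pkm 1242 and 838 against 1182 and 1240 CPM.

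Transcripts of Slc2a1 and Hk2 were lower in the P0.5 controls than in the E16.5 controls. P0.5 and E16.5 controls differ in age, in isolation (peeled epidermis against sorted cells) and in sequencer, which cannot be told apart. Of the 9 members tested, 1 was called higher at P0.5 (Pgk1) and 2 lower (Slc2a1 and Hk2), where 22.2% of 13859 genes tested were called higher and 17.6% lower. Under scaling by library size alone the balance over all genes went from 3070 higher and 2436 lower to 2089 higher and 4340 lower, and for the members to 1 higher and 4 lower. The stages did not overlap for 7 of the 9 members, 3 of them higher and 4 lower at P0.5, beside 36.5% and 45.1% of all genes. Slc2a1 was at 421 and 491 CPM at E16.5 and 200.2 and 146 CPM at P0.5 (log2 fold change −1.28, SE 0.20, adjusted p = 0.00103). Hk2 was at 89.6 and 87.3 CPM at E16.5 and 31.4 and 27.8 CPM at P0.5 (−1.46, SE 0.15, adjusted p = 0.000150). Both calls held without P0.5 control replicate 1, at −1.53 and −1.56.

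The other members moved in both directions between the stages. Pgk1 was higher at P0.5 (log2 fold change 1.30, SE 0.28, adjusted p = 0.00445), and without P0.5 control replicate 1 its log2 fold change was 0.78 (adjusted p = 0.00244). Aldoa was at 0.87 (adjusted p = 0.0146) and Hk1 at 0.63 (adjusted p = 0.0510), neither called. Pfkl was at −1.02 (SE 0.29, adjusted p = 0.0173), not called with both libraries and called without P0.5 control replicate 1 (−1.58, adjusted p = 0.000425). Pgam1 likewise went from −0.37 (adjusted p = 0.182) to −0.72 (adjusted p = 0.00468) without that library. Ldha went from 0.52 (SE 0.29, adjusted p = 0.162) to −0.05 (adjusted p = 0.802). Gpi1 had a log2 fold change of 0.16 (95% interval −0.19 to 0.51). Over the fits without 1 library, the log2 fold change ran from 0.78 to 1.69 for Pgk1 and from 0.47 to 1.18 for Aldoa. For Ldha it ran from −0.054 to 0.94, so the stage values rest on the libraries used.

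The hexokinase balance differed between stages: Hk2 held 83.4% of the hexokinase reads per kilobase in both E16.5 controls and 48.6% and 58.3% in the P0.5 controls. The transport list had 2 genes called higher and 4 lower of 11 tested, beside 22.2% of all genes called higher and 17.6% lower. Among the higher ones was Slc5a1, a sodium-coupled glucose transporter, with 9 and 8 reads at E16.5 and 494 and 339 reads at P0.5 (log2 fold change 7.37, SE 0.57, adjusted p = 3.10e-05). Slc2a4, Slc2a3 and the lactate exporter Slc16a3 were among the lower ones, at −2.43, −2.38 and −2.33. Aldoc (2.90) and Pfkp (1.77) were called higher and Ldhb (−0.63) lower among 13 other glycolysis genes tested. All 9 differentiated epidermis markers, 11 of 12 macrophage markers and all 6 melanocyte markers (median log2 fold change 4.33) were called higher at P0.5. So were 3 of 4 tested skeletal muscle markers (median 5.33). Muscle markers summed to 351 CPM in P0.5 control replicate 1 and 11.8 CPM in replicate 2, against 5.72 and 4.51 CPM at E16.5. The muscle rise thus stood mainly in P0.5 control replicate 1. The part of these cells and states in the stage differences was not tested.

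Finally, the MOF and Kansl1 effects were set against each other in a fit of all 8 libraries. In the difference of effects 0 of 9 members were called, where 1.76% of 14565 genes tested were called higher and 1.17% lower. At an unadjusted p under 0.05, 6 of the 9 passed, beside 4540 of all 14565 genes. DESeq2 called 3 of the 9, beside 942 genes higher and 492 lower in all. Aldoa came nearest, with a difference of 1.497 on the log2 scale (SE 0.31, 95% interval 0.80 to 2.20, adjusted p = 0.0169), followed by Pgam1 at 1.06 (SE 0.27, adjusted p = 0.0359), Pgk1 at 1.11 (SE 0.33, adjusted p = 0.0547) and Ldha at 1.05 (SE 0.37, adjusted p = 0.0867). Hk1 differed by −0.23 (95% interval −1.14 to 0.69). Without P0.5 control replicate 1 the differences were 1.11 for Aldoa, 0.71 for Pgam1, 0.60 for Pgk1 and 0.48 for Ldha. Without P0.5 control replicate 2 they were 1.79, 1.32, 1.48 and 1.44 for these same 4 genes, so their size rests on which P0.5 control is used. Of the other sugar-handling genes, Pdk2 (−2.17, adjusted p = 0.00849) and Arnt (−1.19, adjusted p = 0.00688) were called lower in the difference. Stage and isolation go with the knockout here, so their share in the differences cannot be told apart.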

How the data were processed

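The deposited counts are whole numbers of reads per gene symbol, 1 library per sample. Per the labels, the authors aligned to mm10 with TopHat2 and counted with HTSeq; the study's methods name HISAT2 in place of TopHat2. The annotation and strand setting are not given in the sources used here. Reads that HTSeq assigned to no gene (21.1% to 26.0% per library) stayed out of library sizes. Libraries held 9108709 to 27561688 reads on genes. The p-values rest on the spread between the 2 libraries of a group, which may be partly technical. In the fit each gene's spread was also drawn toward that of other genes.

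Genes that passed filterByExpr were fitted in edgeR 4.0.16 (R 4.3.3, TMM factors, quasi-likelihood test) across all genes, each comparison on its own 4 libraries and the difference of effects on all 8, with Benjamini-Hochberg adjustment. A call needed an adjusted p of at most 0.01 and a fold above 1.5. Scripts were tested on simulated data. Alternatives were DESeq2 1.42.0, a likelihood ratio test, other scalings, filters and thresholds, a replicate block and leaving out each library. Exon lengths, merged over all annotated exons of a gene, came from GENCODE M21 and promoters from RefSeq (GRCm38.p6). Copies of a gene were transcripts with at least 95% identity over at least 50% of its length. All members are named; of the other lists, isozymes, Tpi1, Gapdh, Pkm and at most 4 called genes each. Members and lists were chosen with earlier results of these data known.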

Additional observations from a re-analysis of the deposited data

Results flagged for a closer look

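The MOF and Kansl1 effects on 2 members differed by a test of the difference itself at an adjusted p of at most 0.05, although neither passed the threshold of 0.01 used for calls (edgeR quasi-likelihood test over 14565 genes). At an adjusted p of 0.05 with a fold above 1.5, 1026 of all genes were higher and 985 lower in this difference. For Aldoa the MOF effect exceeded the Kansl1 effect by 1.497 on the log2 scale (SE 0.31, adjusted p = 0.0169). Aldoa was higher in both MOF cKO libraries than in both E16.5 controls, while its P0.5 groups overlapped. For Pgam1 the difference was 1.06 (SE 0.27, adjusted p = 0.0359), with the same pattern of overlap. Leaving out P0.5 control replicate 1, the library with muscle markers, gave 1.11 (adjusted p = 0.0338) for Aldoa and 0.71 (adjusted p = 0.0705) for Pgam1. No group had enough libraries to test for an outlying one.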

How the results depend on the processing

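For MOF cKO the 6 calls became 4 to 7 under the alternatives tried, except 3 when all 8 libraries were fitted together; Aldoa and Pgam1 were called under every alternative, and Slc2a1, never called, was at −0.21 under library size alone and between −0.014 and 0.20 without 1 library. Gpi1 lost its call without control replicate 1 (adjusted p = 0.0102) or MOF cKO replicate 1 (adjusted p = 0.0172), Pfkl without MOF cKO replicate 2 (adjusted p = 0.0205), and both with upper-quartile factors or library size alone, where Pgk1 was lost too. Hk1 was called lower without control replicate 2 or MOF cKO replicate 2, with DESeq2 (adjusted p = 0.00361), the likelihood ratio test, library size alone, no filter, an adjusted p of 0.05 and the replicate block. For Kansl1 cKO 0 members were called under any alternative. Values near 0 changed sign there: Gpi1 was at −0.011 with upper-quartile factors and −0.0074 with library size alone, and Hk2 at 0.012 in the fit of all 8 libraries. Leaving out 1 library moved Hk2 between −0.15 and 0.074, Gpi1 between −0.055 and 0.11, Pfkl between −0.50 and 0.50, Aldoa between −0.45 and 0.28, Pgk1 between −0.85 and 0.079, Pgam1 between −0.50 and 0.17, and Ldha between −0.59 and 0.42, the upper end in each case without P0.5 control replicate 1. Between stages, 5 members were called with each of DESeq2, the likelihood ratio test, library size alone, no filter and an adjusted p of 0.05. In the main fit 22.2% of all genes were called higher and 17.6% lower between stages. The shares of all genes under these alternatives are not set beside the counts, so the counts are not read as particular to the members. Gpi1 reversed to −0.30 with library size alone, and Ldha ranged from −0.054 to 0.94 without 1 library. In the difference of effects, 3 members were called with DESeq2 and 2 with the likelihood ratio test. With no filter 4 were called, and 2 at an adjusted p of 0.05. Leaving out 1 library moved Hk1 between −0.61 and 0.13. The cause of these shifts was not tested.

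Over all genes, the difference of effects gave 256 higher and 170 lower calls, 219 and 245 with library size alone, 942 and 492 with DESeq2, and 1026 and 985 at an adjusted p of 0.05. Same-numbered libraries deviated together at E16.5 (correlation 0.19) and not at P0.5 (−0.11), and the labels tie no number to a litter. A replicate block gave 7 called members in MOF cKO (6 higher and Hk1 lower; 1903 and 2263 genes in all), 0 in Kansl1 cKO and 0 in the difference. With the Kansl1 cKO numbers crossed, an alternative chosen after seeing the data, 0 members and 1 gene were called. Hk1 rests on 255 to 854 reads per library, and 2 libraries a group limit every interval.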
